A study of Brassica oleracea with 8 samples.

Results

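MYB96 and MYB106 are R2R3-MYB transcription factors of the plant epidermis, and each is represented here by a pair of Brassica oleracea genes. The members are the genes that the study assigned to these names, Bo2g082270 and Bo6g118860 for MYB96 and Bo5g156410 and Bo8g104210 for MYB106. They are 4 of the 60586 features in the count files. The study named these genes for their difference in the same libraries, so the calls below describe them and are not independent evidence of a difference. Within each pair, the strongly and the weakly counted copy were compared over the morphotypes.

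In Arabidopsis, MYB96 activates genes of cuticular wax biosynthesis and acts in the response to drought and abscisic acid. Arabidopsis MYB106, also called NOECK, is a MIXTA-like factor that limits the branching of trichomes, the hairs of the leaf surface, and promotes the outgrowth of conical epidermal cells and the formation of the cuticle. Brassica oleracea descends from an ancestor whose whole genome was multiplied, and a single Arabidopsis gene often has several counterparts in it. No other role of these copies in B. oleracea is assumed here, and their sequences, lengths and positions were not analysed.

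RNA was sequenced from the upper stem, with its immature leaves and its apical and lateral meristems, of plants 24 days after sowing. Kale, a lobed-leaf form, gave 3 libraries, cabbage gave 2, and TO1000, the rapid-cycling line whose genome served as the mapping reference, gave 3, each from 8 pooled plants. The deposited labels give the varieties as viridis for kale, sabadua for cabbage and alboglabra for TO1000, while the paper calls the kale acephala Red Winter and the cabbage capitata. No morphotype received a treatment or carried an introduced allele, all grew in the same chamber, and each was a single accession. A difference between morphotypes therefore cannot be told apart from a difference between accessions, or from one in stage, since the number of expanded leaves at harvest was not the same in each. Another cabbage replicate was not analysed here.

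The libraries held 3016197 to 7539991 counted reads, with the smallest in cabbage. In bulk tissue, a change in the number of cells that express a gene and a change in the RNA per cell cannot be told apart. Marker genes of the sampled tissue differed in part between morphotypes. The study named ANT, REVOLUTA, AP1, GL1, GL2, TRY and EGL3 among the genes that differ in these same libraries. Their differences are therefore not independent evidence on the make-up of the tissue. The summed level of the leaf primordium and meristem markers ANT, YAB1 and the pair of REVOLUTA genes was 28.2 to 50.9 CPM in kale, 80.7 to 83.0 in cabbage and 75.5 to 84.1 in TO1000. Its members went both ways: ANT (7.65 to 13.7 CPM in kale, 18.8 to 36.5 elsewhere) and YAB1 (13.6 to 26.0 CPM in kale, 47.5 to 64.2 elsewhere), which carry the sum, were called lower in kale, and both REVOLUTA genes were called higher (1.97 to 9.62 CPM in kale, 0 in cabbage and 0 to 0.295 in TO1000). CPM are read counts scaled to a common library size after scaling of the libraries by the trimmed mean of M-values (TMM). The summed level of the trichome markers GL1, GL2, TRY and EGL3 was 54.2 to 85.4 CPM in kale. It was 37.3 to 48.6 in cabbage and 45.9 to 47.9 in TO1000. GL1, GL2 and TRY were called higher in kale and EGL3 lower. TRY, an inhibitor of trichome initiation, carried most of the sum in kale, at 39.2 to 61.3 CPM. Elsewhere TRY and EGL3 together carried most of it. The flower meristem gene AP1 was at 5.26 to 6.74 CPM in kale and at 0 to 0.168 in the other libraries. The part of these markers in the differences of the MYB genes was not tested.

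All 4 MYB genes were higher in kale than in the other morphotypes. The strongly counted copies, Bo2g082270 of MYB96 and Bo5g156410 of MYB106, were 2.13-fold and 2.52-fold higher in kale than in TO1000, and the weakly counted copies, Bo6g118860 and Bo8g104210, were 13.1-fold and 14.0-fold higher. Against cabbage, the strong copies were 2.62-fold and 3.73-fold higher and the weak copies 11.3-fold and 7.79-fold. Between cabbage and TO1000, 0 of the 4 genes were called, where 26.2% of all tested genes were. Nothing is read from this count, since the genes were chosen for their difference in kale and the weak copies had few reads elsewhere.

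Bo2g082270, the strongly counted MYB96 copy, had the highest count of the 4 genes in every library. Its level was 132, 160 and 106 CPM in kale replicates 1, 2 and 3, 48.9 and 52.3 CPM in cabbage replicates 1 and 2, and 64.4, 61.7 and 60.9 CPM in TO1000 replicates 1, 2 and 3. The lowest kale library lay above every other library, and the cabbage libraries lay below those of TO1000 without overlap. On average, kale had 133 ± 26.8 CPM (SD, n = 3), cabbage 50.6 ± 2.42 (n = 2) and TO1000 62.4 ± 1.81 (n = 3). The spread among the kale libraries was the widest of the 3 morphotypes.

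For Bo2g082270, the log2 fold change of kale against TO1000 was 1.09 (standard error 0.17, 95% interval 0.73 to 1.45, edgeR quasi-likelihood test with Benjamini-Hochberg adjustment over all genes and the 3 comparisons, adjusted p = 1.22e-04). Against cabbage it was 1.39 (interval 0.96 to 1.82, edgeR adjusted p = 5.93e-05). Calls required an adjusted p below 0.05 together with an absolute log2 fold change over 1. The fold change against TO1000 lay close to that limit, and without kale replicate 2, the highest kale library, it was 0.92 and the call was lost, with an adjusted p of 7.31e-04. A test against a 2-fold change (glmTreat of edgeR) called neither difference, with adjusted p = 0.494 against TO1000 and 0.0619 against cabbage. Of the 28126 genes tested, 85.8% had a lower log2 fold change against TO1000 than this copy and 86.4% a lower one against cabbage. Cabbage and TO1000 differed by a log2 fold change of -0.30 (interval -0.72 to 0.12, edgeR adjusted p = 0.243). Cabbage thus lay below TO1000 by more than the SD of either group. The difference was not called, as it met neither the limit on the fold change nor that on the adjusted p.

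The weakly counted MYB96 copy, Bo6g118860, had 63, 41 and 33 reads in the kale libraries, 2 and 4 in the cabbage libraries and 5, 3 and 4 in the TO1000 libraries. These counts correspond to 8.66, 7.35 and 7.89 CPM in kale, 0.724 and 0.670 CPM in cabbage and 0.787, 0.410 and 0.590 CPM in TO1000. The kale libraries lay close together and far above all others, and the cabbage libraries fell within the range of TO1000. Kale averaged 7.97 ± 0.66 CPM (SD, n = 3), cabbage 0.697 ± 0.038 (n = 2) and TO1000 0.596 ± 0.19 (n = 3).

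The log2 fold change of Bo6g118860 was 3.71 against TO1000 (standard error 0.38, interval 2.90 to 4.53, edgeR adjusted p = 1.75e-06) and 3.49 against cabbage (standard error 0.49, interval 2.46 to 4.53, edgeR adjusted p = 3.86e-05). Both calls held under every alternative run. The summed reads gave a ratio of 13.7 against TO1000 (95% counting interval 7.60 to 27.2) and 11.7 against cabbage (5.24 to 32.4). These intervals cover counting error only, since reads amplified by PCR without molecular identifiers are not independent molecules. For cabbage against TO1000 the log2 fold change was 0.22 (interval -1.14 to 1.58, edgeR adjusted p = 0.826), an interval that leaves a change of more than 2-fold in either direction possible at this depth.

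**Figure D1:**
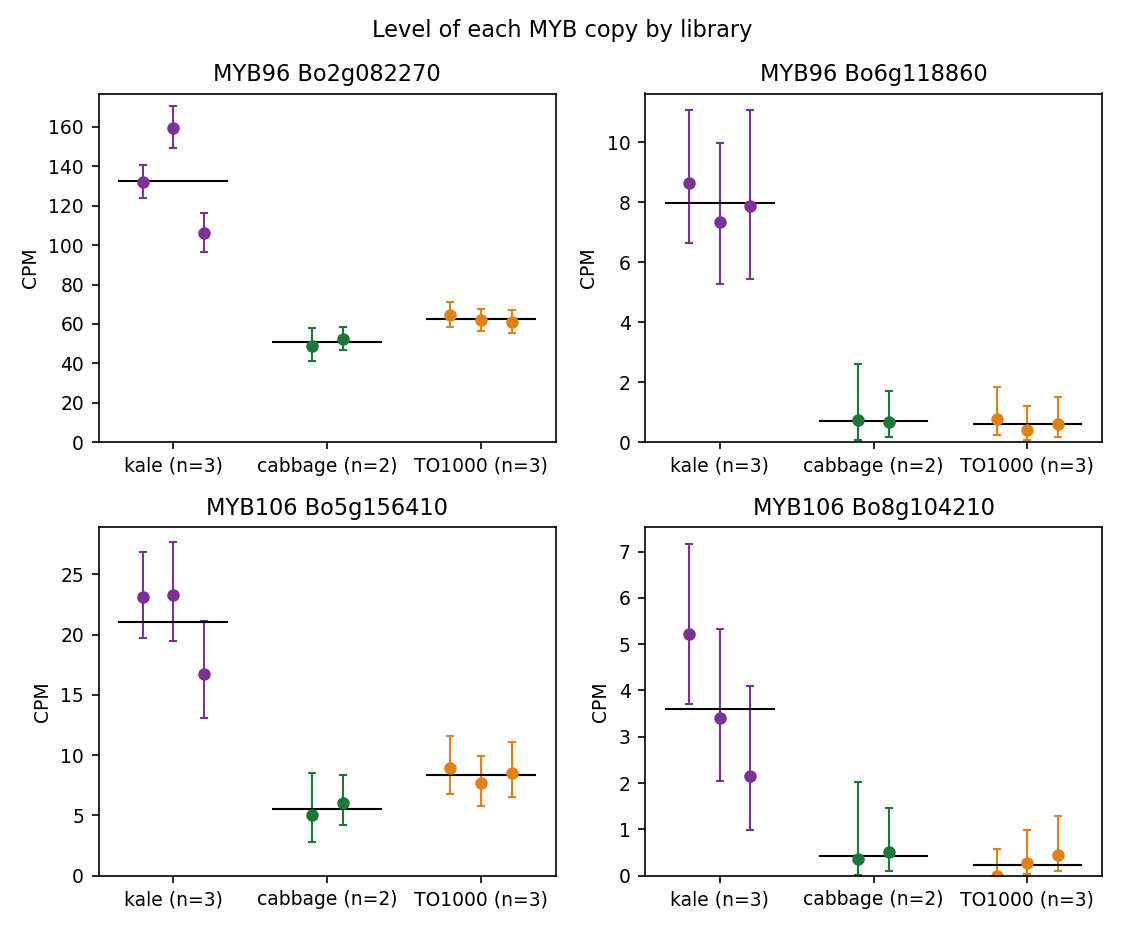
Level in CPM of the 4 MYB copies in each library of kale (n = 3), cabbage (n = 2) and TO1000 (n = 3), each panel on its own axis from 0; points are libraries with 95% exact Poisson intervals of the count, lines are group means. In each panel every kale library lies above every other library, with 106 to 160 CPM against 48.9 to 64.4 for Bo2g082270 and 2.15 to 5.22 against 0 to 0.503 for Bo8g104210.

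For MYB106, the strongly counted copy Bo5g156410 was at 23.1, 23.3 and 16.7 CPM in kale, 5.07 and 6.03 CPM in cabbage and 8.97, 7.65 and 8.56 CPM in TO1000. Kale replicate 3 was the lowest of the kale libraries, as it was for Bo2g082270, and still lay above all others. The cabbage libraries were again below those of TO1000 without overlap. Kale had a mean of 21.1 ± 3.74 CPM (SD, n = 3), cabbage one of 5.55 ± 0.683 (n = 2) and TO1000 one of 8.39 ± 0.677 (n = 3). Kale replicate 3 had also the lowest sum of leaf primordium and meristem markers, at 28.2 CPM, and the part of this in the spread was not tested.

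The log2 fold change of Bo5g156410 was 1.34 against TO1000 (standard error 0.20, interval 0.90 to 1.77, edgeR adjusted p = 9.39e-05) and 1.90 against cabbage (standard error 0.26, interval 1.34 to 2.46, edgeR adjusted p = 3.56e-05). A test against a 2-fold change kept the call against cabbage and gave an adjusted p of 0.106 against TO1000. Cabbage was lower than TO1000 by a log2 value of -0.57, with an interval of -1.14 to 0.01, and the difference was not called (edgeR adjusted p = 0.108). The interval thus just reached 0.

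Bo8g104210, the weakly counted MYB106 copy, had 38, 19 and 9 reads in kale, 1 and 3 in cabbage and 0, 2 and 3 in TO1000. Its level was 5.22, 3.41 and 2.15 CPM in kale, 0.362 and 0.503 CPM in cabbage and 0, 0.273 and 0.443 CPM in TO1000. The value of 0 in TO1000 replicate 1 allows a level of up to 0.472 CPM (3 counts, a one-sided limit), and the two-sided 95% Poisson interval drawn in the plot of levels reaches 0.581 CPM. Kale did not overlap with the other morphotypes, but relative to the mean its own libraries differed more for this copy than for the other 3, with a mean of 3.59 ± 1.54 CPM (SD, n = 3). The mean was 0.432 ± 0.0995 in cabbage (n = 2) and 0.239 ± 0.223 in TO1000 (n = 3).

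Bo8g104210 had a log2 fold change of 3.81 against TO1000 (standard error 0.67, interval 2.40 to 5.22, edgeR adjusted p = 3.17e-04). This size moved with the TO1000 libraries, to 3.30 without replicate 1 and 4.46 without replicate 3, and the call held in both cases. Against cabbage it was 2.96 (standard error 0.78, interval 1.31 to 4.62, edgeR adjusted p = 0.00686), and the call was lost without cabbage replicate 2, with a log2 fold change of 3.27 and an adjusted p of 0.0680. The ratio of summed reads was 15.9 against TO1000 (95% counting interval 6.46 to 50.4) and 8.46 against cabbage (3.15 to 32.0). Cabbage and TO1000 rested on 4 and 5 reads in all, and a difference between them was not detectable at this depth (log2 fold change 0.84, interval -1.41 to 3.09, edgeR adjusted p = 0.555).

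Across the comparisons, 4 of the 4 MYB genes were called higher in kale than in TO1000, where 14.2% of the tested genes were called in that direction and 27.7% in either. Likewise 4 of 4 were called higher in kale than in cabbage, beside 14.7% of the tested genes in that direction and 25.7% in either. Of all tested genes, 6.56% were called higher in kale in both comparisons, which share the kale libraries. The study chose the genes in these contrasts, and nothing is read from the counts. Of the members, 2 passed the filter on low counts through the kale libraries alone, Bo6g118860 and Bo8g104210, so that they could be tested only because they were high there. Between cabbage and TO1000, 26.2% of the tested genes were called (11.5% higher and 14.8% lower in cabbage). Of the 4 members, 0 passed by edgeR, 0 had an unadjusted p under 0.05 and 0 passed by DESeq2. Nothing is read from these counts either. The paper places MYB96 among genes exclusive to kale, a choice that disfavours a call between the other morphotypes. The weak copies Bo6g118860 and Bo8g104210 had 6 and 4 reads in cabbage and 12 and 5 in TO1000, which leaves little room for a call. The median log2 fold change over all tested genes was 0.00 for kale against TO1000, 0.06 for kale against cabbage and -0.02 for cabbage against TO1000.

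**Figure D2:**
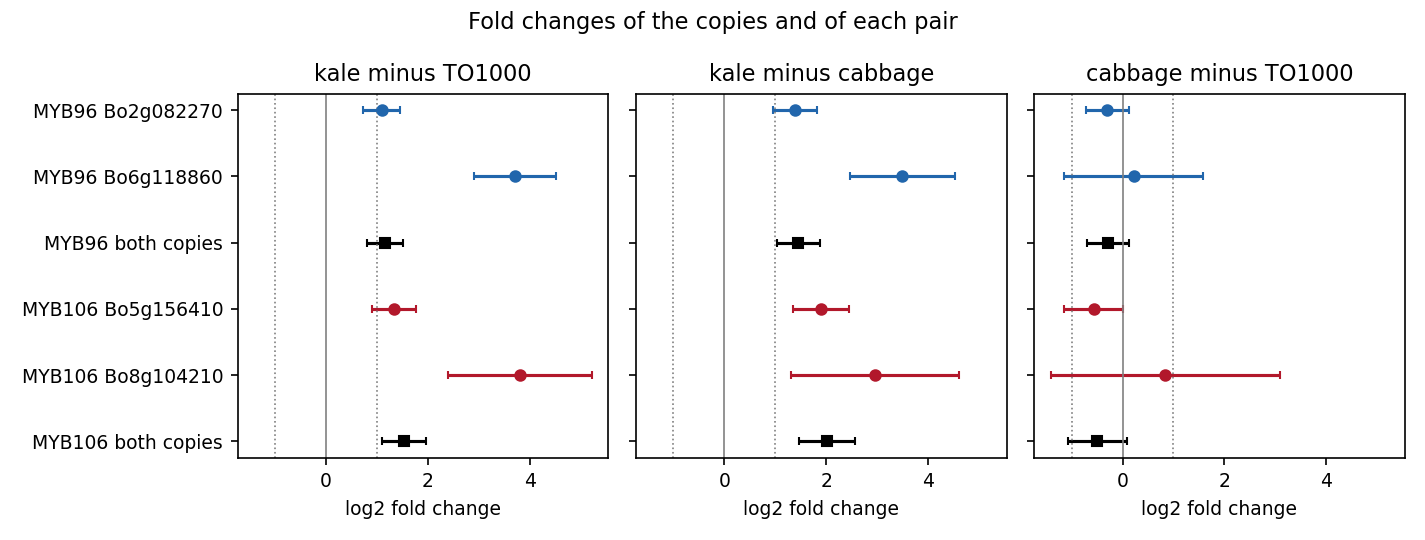
Log2 fold change (x axis) of the 4 copies (circles) and of the summed counts of each pair (squares) in the 3 comparisons, with 95% intervals from edgeR; dotted lines mark a log2 fold change of 1 in either direction. The kale comparisons lie to the right of 0 for every gene, with 3.71 for Bo6g118860 against 1.09 for Bo2g082270 in kale minus TO1000, while all intervals of cabbage minus TO1000 include 0.

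The summed counts of each pair hold every read counted on either copy, whichever copy it was assigned to. Reads that were counted on neither copy are missing from the sum. For MYB96, the sum was 140 CPM in kale, 51.3 in cabbage and 63.0 in TO1000. The log2 fold change of the MYB96 sum was 1.16 against TO1000 (edgeR adjusted p = 5.93e-05) and 1.45 against cabbage (edgeR adjusted p = 3.37e-05). For MYB106, the sum was 24.6 CPM in kale, 5.98 in cabbage and 8.63 in TO1000. Its log2 fold change was 1.52 against TO1000 (edgeR adjusted p = 2.72e-05) and 2.02 against cabbage (edgeR adjusted p = 1.92e-05). Neither sum was called between cabbage and TO1000, with log2 fold changes of -0.29 for MYB96 (edgeR adjusted p = 0.245) and -0.50 for MYB106 (edgeR adjusted p = 0.158).

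Although the weak copies had the larger fold changes, most of the added reads came from the strong copies. Between TO1000 and kale, Bo2g082270 gained 70.2 CPM and Bo6g118860 gained 7.37 CPM, so that the weak copy made up 9.51% of the gain of the MYB96 pair. Against cabbage its part was 8.15%. In the MYB106 pair, Bo5g156410 gained 12.7 CPM over TO1000 and Bo8g104210 gained 3.36 CPM, which put the weak copy at 21.0% of the gain, and at 16.9% against cabbage.

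The balance within a pair was measured as the log2 ratio of the strong to the weak copy in each library, with 0.5 added to each count. Scaling factors of the libraries cancel in this ratio, but where the weak copy has few reads the added count makes it depend on depth. Its level also depends on the lengths of the copies, which were not used here, but its change between morphotypes does not depend on them. All reads were aligned to the TO1000 genome. The part of sequence differences of kale and cabbage from that genome in the ratio was not tested. Strong and weak were assigned from the counts summed over all 8 libraries. In both pairs the weak copy was named by the study for being higher in kale and passed the count filter through kale alone, so the p-values of the ratio rest on selected genes and are given as a description, not as independent evidence.

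In the MYB96 pair, the share of reads on the weak copy was 6.16%, 4.40% and 6.93% in kale replicates 1, 2 and 3, with 95% Wilson intervals of 4.84 to 7.80, 3.26 to 5.92 and 4.98 to 9.58. It was 1.46% and 1.27% in the cabbage libraries (Wilson intervals 0.401 to 5.17 and 0.493 to 3.21) and 1.21%, 0.659% and 0.959% in those of TO1000. All kale libraries had a larger share than any other library, and the shares of cabbage lay just above those of TO1000. In reads, the strong copy had 15.2, 21.7 and 13.4 reads for each read of the weak copy in kale, 67.5 and 78.0 in cabbage, and 81.8, 151 and 103 in TO1000.

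The mean log2 ratio of the MYB96 pair was 4.02 ± 0.36 in kale (SD, n = 3), 5.94 ± 0.25 in cabbage (n = 2) and 6.58 ± 0.40 in TO1000 (n = 3). Over the 3 morphotypes, the ratio gave p = 0.00714 (exact permutation test over 560 divisions of the libraries, one-sided by construction, adjusted p = 0.0286 over the 4 tests of copy ratios). Kale was lower than the other libraries by a log2 value of -2.30 (two-sided exact permutation test, p = 0.0357, adjusted p = 0.0357), which is the smallest p that 3 libraries against 5 allow. The highest kale ratio was 4.42 and the lowest of the other libraries was 5.76. The difference of kale was -2.56 from TO1000 and -1.92 from cabbage, and cabbage was 0.65 below TO1000, pairs for which no test could go below p = 0.1 by exact permutation.

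In the MYB106 pair, the weak copy had 18.4%, 12.8% and 11.4% of the reads in kale (95% Wilson intervals 13.7 to 24.3, 8.32 to 19.1 and 6.11 to 20.3). In cabbage it had 6.67% and 7.69% (Wilson intervals 1.19 to 29.8 and 2.65 to 20.3). In TO1000 it had 0%, 3.45% and 4.92%, and the 0 of 57 reads in replicate 1 allow a share of up to 5.26% (3 reads, a one-sided limit; the two-sided Wilson interval reaches 6.31%). The order was kale, cabbage, TO1000 without overlap. The cabbage intervals spanned the kale shares, and kale and cabbage could not be set apart at the depth of the cabbage libraries. TO1000 replicates 2 and 3 had Wilson intervals of 0.951 to 11.7 and 1.69 to 13.5. These held both cabbage shares and reached the lowest kale share, so cabbage and TO1000 could not be set apart at this depth either.

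The mean log2 ratio of the MYB106 pair was 2.59 ± 0.40 in kale (SD, n = 3), 3.33 ± 0.077 in cabbage (n = 2) and 5.14 ± 1.50 in TO1000 (n = 3). Over the 3 morphotypes it gave p = 0.0286 (exact permutation test, adjusted p = 0.0357), for a weak copy that was likewise selected for its level in kale. Kale was lower than the other libraries by a log2 value of -1.82 (two-sided exact permutation test, p = 0.0357, adjusted p = 0.0357). This size leaned on TO1000 replicate 1, the library with 0 reads of Bo8g104210, without which it was -1.22. Kale and cabbage differed by -0.74 and kale and TO1000 by -2.55. The highest kale ratio was 2.89 and the lowest of the others was 3.27, a narrower gap than in the MYB96 pair.

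With any 1 library left out, the adjusted p of kale against the others was 0.0571 to 0.105 in each pair (exact permutation test), because fewer libraries allow fewer divisions. The test over the 3 morphotypes then gave adjusted p = 0.0381 to 0.0762 for MYB96 and 0.0381 to 0.171 for MYB106 by exact permutation, and it stayed under 0.05 in both pairs only where the library left out was one of TO1000.

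**Figure D3:**
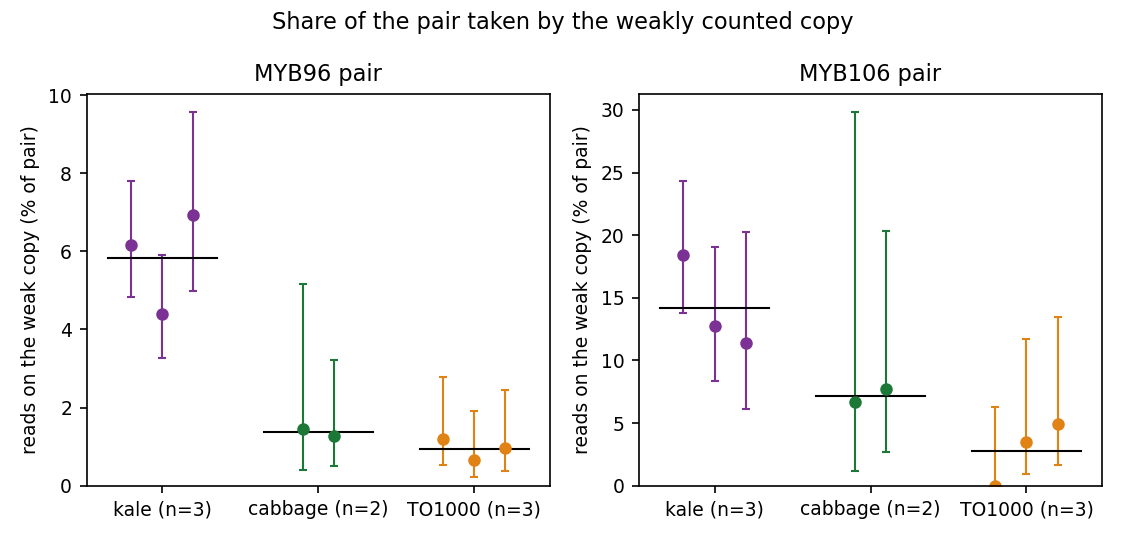
Share of the reads of each pair on the weakly counted copy, in percent (y axis from 0), in each library of kale (n = 3), cabbage (n = 2) and TO1000 (n = 3); points are libraries with 95% Wilson intervals and lines are group means. The MYB96 shares are 4.40 to 6.93% in kale and 0.659 to 1.46% elsewhere, and the MYB106 shares are 11.4 to 18.4% in kale and 0 to 7.69% elsewhere with wide intervals.

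The strong copies of the 2 pairs resembled each other more than they resembled their own partners. Likeness was the root mean square difference of log2 CPM, centred on each gene's mean, over the 8 libraries, so that a smaller value is a closer pattern, and a count of 2 was added before the logarithm, which draws genes with few reads together. Bo5g156410 ranked 36 of 28125 genes by likeness to Bo2g082270, with a difference of 0.21, and Bo2g082270 ranked 13 by likeness to Bo5g156410. Bo6g118860 and Bo8g104210, the weak copies, differed by 0.57, with Bo8g104210 at rank 399 from Bo6g118860 and Bo6g118860 at rank 248 in the other direction. Within the pairs, Bo6g118860 differed from Bo2g082270 by 0.97 and ranked 19370, and Bo8g104210 differed from Bo5g156410 by 0.76 and ranked 8299. In the other direction, Bo2g082270 ranked 1665 by likeness to Bo6g118860, and Bo5g156410 ranked 903 by likeness to Bo8g104210. The measure is not scaled for the size of the changes. Copies with unlike fold changes therefore rank apart even where both are higher in kale. These ranks describe the libraries and carry no test.

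The genes closest to Bo2g082270 were Bo8g066970, Bo2g151840 and Bo7g118390, with differences of 0.09, 0.14 and 0.14. Bo8g066970 had means of 22.3 CPM in kale, 7.81 in cabbage and 10.9 in TO1000, the same order as the MYB96 copy. Closest to Bo5g156410 were Bo3g048700, Bo2g051210 and Bo9g030690, with differences of 0.13, 0.16 and 0.16, and Bo3g048700 had 21.2, 5.40 and 9.12 CPM, near the levels of Bo5g156410 itself.

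The nearest genes of the weak copies were Bo6g067140, Bo8g107300 and Bo9g159840 for Bo6g118860 (0.15, 0.17 and 0.18) and Bo6g072280, Bo00751s100 and Bo3g037120 for Bo8g104210, all at 0.25 to 0.26. Bo8g107300 was the most highly counted of these, with means of 32.3 CPM in kale, 3.67 in cabbage and 2.90 in TO1000. Bo9g159840 was at 2.93 CPM in kale and at 0 in all other libraries. The files do not annotate these identifiers, and no function is given to them.

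Genes of trichome development that the study listed, 10 besides MYB106, were compared with the MYB genes in the same fit. They too were picked in these libraries and are not independent evidence. Of the 10, 7 were tested, and against TO1000 5 were called higher and 2 lower in kale, where 14.2% and 13.5% of all tested genes were. Against cabbage, 5 were higher and 2 lower, beside 14.7% and 11.1% of all genes. Of the 7, 4 passed the filter through kale alone. The median log2 fold change of the tested genes was 3.97 against TO1000 and 2.68 against cabbage, also with CML42, at 0 in cabbage, set to its bound. Between cabbage and TO1000, 0 of the 7 were called by edgeR, beside 26.2% of all tested genes.

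The genes higher in kale act at several steps in Arabidopsis. GL1, an R2R3-MYB factor of trichome initiation, had 14, 16 and 8 reads in kale, 1 and 0 in cabbage and 1, 0 and 0 in TO1000. GL2, a homeodomain factor of trichome maturation, was at 7.89 to 14.7 CPM in kale, 0 to 0.724 in cabbage and 0.157 to 1.33 in TO1000. These low values outside kale were of the same order as those of the weak MYB copies.

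WRKY44 (Bo3g031650), a factor of trichome development, was at 7.15 to 7.71 CPM in kale, 1.09 to 1.17 in cabbage and 0.137 to 0.738 in TO1000. CML42, a calmodulin-like regulator of trichome branching, had 10, 24 and 9 reads in kale, 0 in both cabbage libraries and 1, 1 and 0 in TO1000, and was at least 7.35-fold higher in kale than in cabbage (3 counts over the cabbage libraries). TRY, an inhibitor of trichome initiation in neighbouring cells, was well counted in all libraries and changed by 1.17 against TO1000 and 1.15 against cabbage on the log2 scale (edgeR adjusted p = 2.64e-04 and 0.00119), sizes near that of Bo2g082270.

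EGL3 and HDG11 went the other way. EGL3, a bHLH partner of GL1, was at 4.81 to 6.46 CPM in kale, 15.6 to 24.5 in cabbage and 19.9 to 29.1 in TO1000, a log2 fold change of -2.11 against TO1000 and -1.88 against cabbage (edgeR adjusted p = 4.01e-06 and 4.19e-05). HDG11, a homeodomain factor of trichome branching, had log2 fold changes of -1.74 and -1.84 (edgeR adjusted p = 3.00e-04 and 4.98e-04). The untested genes were MYB80, with 0 reads in kale, 2 and 5 in cabbage and 4, 11 and 3 in TO1000, a second WRKY44 gene (Bo4g030720), with 4, 10 and 17 reads in kale and 0 or 1 elsewhere, and XIK, with 1 read in kale in all and 10 or 11 in each TO1000 library. Genes of wax and cuticle synthesis, on which MYB96 acts in Arabidopsis, were not analysed here because no table at hand paired their names with the identifiers of the count files.

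**Figure D4:**
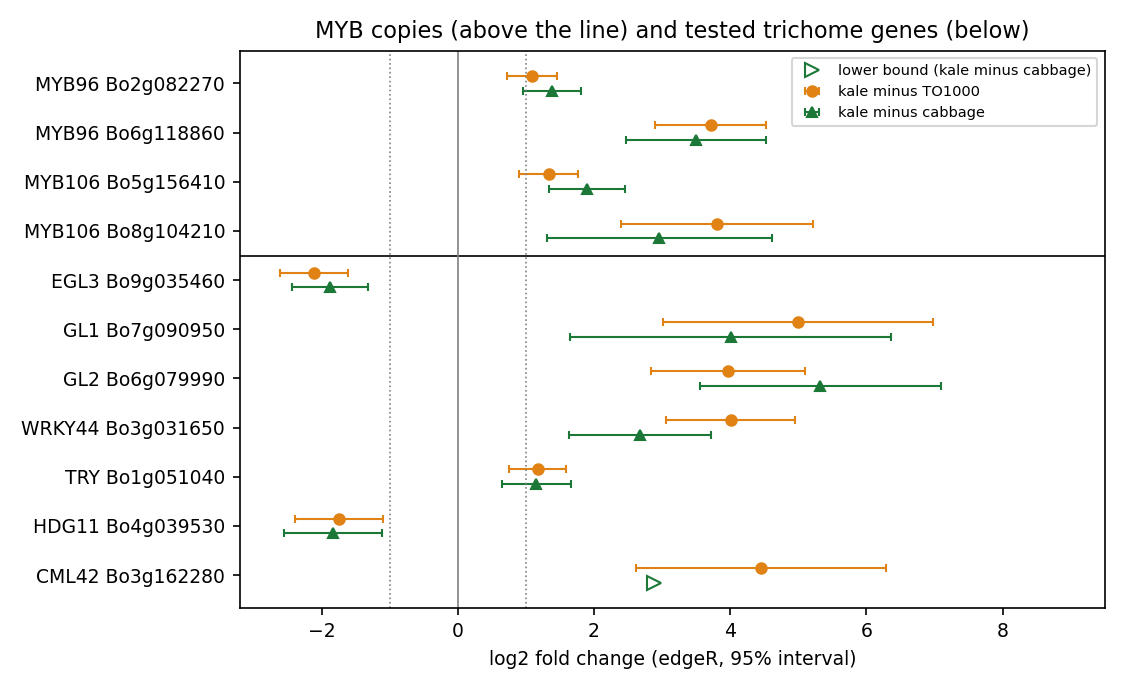
Log2 fold change of kale against TO1000 (circles) and against cabbage (triangles) with 95% edgeR intervals for the 4 MYB copies and the 7 tested trichome genes; dotted lines mark 1 in either direction and the open triangle is the lower bound of CML42 against cabbage, where it was at 0. The MYB copies, GL1, GL2, WRKY44, TRY and CML42 lie to the right of 0 and EGL3 (-2.11) and HDG11 (-1.74) to the left; the values of genes with 1 to 3 reads outside kale depend on the count that edgeR adds.

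**Figure D5:**
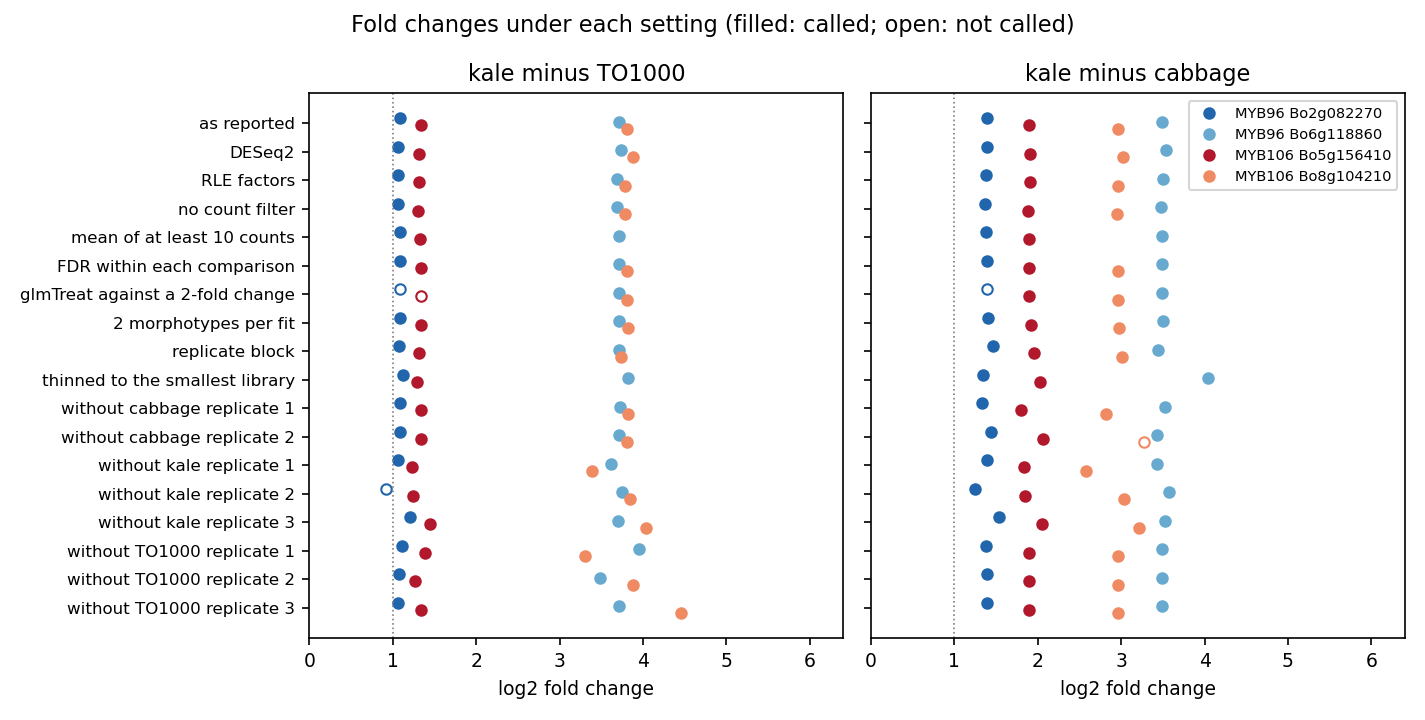
Log2 fold change (x axis) of the 4 MYB copies as reported and under each alternative of the processing, for kale minus TO1000 and kale minus cabbage; filled points were called, open points were not, and the dotted line marks 1. Of 132 values under the alternatives, 132 are positive and 127 were called, and the lowest is 0.92 for Bo2g082270 against TO1000 without kale replicate 2.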

How the data were processed

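Reads were trimmed by the authors (Cutadapt 2.4) and aligned with STAR to the TO1000 genome, and the deposited values are unnormalized read counts per gene, 1 file per library. Polyadenylated RNA was copied to cDNA and amplified by PCR, with no DNase step. The strand setting of the counts and the treatment of reads shared by near-identical copies are not given in the sources used here, so the division of reads within each pair is uncertain in that respect. Libraries were grouped by their titles. Replicate libraries were compared pairwise and none was a repeat of another.

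Counts were tested with edgeR 4.0.16 in R 4.3.3 (minimum count 10, minimum total 15, TMM, quasi-likelihood test, all 8 libraries in one fit with morphotype as the term), with Benjamini-Hochberg adjustment over 28126 genes and 3 comparisons together. Pair totals were added as extra features in a separate fit. Copy ratios were tested by exact permutation with scipy 1.17.1, the 4 tests adjusted together. Figures were drawn with matplotlib 3.10.9. The scripts were tested on simulated data. Totals of 3016197 to 7539991 counts limit the precision of genes with few reads, and the Poisson, Wilson and summed-read intervals cover counting error only, while the edgeR intervals include the spread between libraries. Deviations from the group means had correlations of -0.115 to 0.196 between replicates sharing a number and of -0.174 to 0.174 between the others. The highest was that of kale and TO1000 replicates 3. The numbers were not used as pairs. Named genes were the 4 members, the study's trichome genes and the 3 genes nearest in pattern to each member. The members and lists were chosen with earlier results of these data known. Alternatives were DESeq2 1.42.0, other scaling and filters, adjustment within a comparison, a test against a 2-fold change, fits of 2 morphotypes, a replicate block, libraries thinned to the total of the smallest, and each library left out in turn.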

Additional observations from a re-analysis of the deposited data

How the results depend on the processing

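Of 132 values of the MYB copies in both kale comparisons under the alternatives, 127 were called and 132 kept their direction. The test against a 2-fold change left Bo2g082270 against TO1000 (1.09, edgeR adjusted p = 0.494) and cabbage (1.39, 0.0619) and Bo5g156410 against TO1000 (1.34, 0.106) uncalled. The other uncalled values were Bo2g082270 against TO1000 without kale replicate 2 and Bo8g104210 against cabbage without cabbage replicate 2. Apart from these 132 values, the test also left the MYB96 sum against TO1000 uncalled (1.16, 0.297). The test lowered the calls over all genes from 7791, 7232 and 7380 to 4277, 3360 and 3519 for kale minus TO1000, kale minus cabbage and cabbage minus TO1000.

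Thinning to the smallest library turned the uncalled cabbage minus TO1000 value of Bo6g118860 to -0.21, and moved the MYB96 statistic over the morphotypes from 16.2 to 6.36 and the copy ratio kale minus others from -2.30 to -2.60 for MYB96 and from -1.82 to -1.50 for MYB106. With each library left out in turn, that value ran from -0.00349 to 0.45, Bo2g082270 against TO1000 from 0.92 to 1.20, Bo8g104210 against TO1000 from 3.30 to 4.46 and against cabbage from 2.58 to 3.27, and the trichome genes called against TO1000 from 4, without kale replicate 2, to 10. The copy ratio kale minus others ran from -2.50 to -2.13 for MYB96 and from -2.11 to -1.22 for MYB106, and the statistic over the morphotypes from 12.3 to 23.3 and from 1.68 to 8.07. With 1 cabbage library left, it is assumed to vary like the other groups; calls against cabbage fell to 5430 without cabbage replicate 2.

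The replicate numbers were not used as pairs, and a replicate block (7710, 6728 and 6805 calls) changed no call of a MYB gene. Without the filter the median of all genes moved to -0.17, 0.14 and -0.43. Bo8g104210 did not pass the stricter filter or the thinning, and the MYB106 ratio with no count added had no value in TO1000 replicate 1. The exact tests with a library left out had fewer divisions to draw on, and the cause of the other changes was not tested. Depth limits all statements on the weak copies outside kale, which rest on 0 to 5 reads per library.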
